A study of Mus musculus with 3 samples.

Results

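The cells described here are 254 cells of the Cxcl12-GFP P6 library that carried at least 3 UMIs (unique molecular identifiers, each counting 1 captured RNA molecule) of Tac1 and Aox3 together. Barcodes needed 500 or more genes and no more than 15% of UMIs from mitochondrial genes to enter, and Ptprc, Pecam1 and Epcam (immune, endothelial and epithelial genes) had to be at 0. They made up 3.38% of the 7517 barcodes that passed the quality filter (95% interval 2.98 to 3.81, exact binomial). They were set against the 6795 other cells with those 3 genes at 0, and 12 further cells with 3 or more UMIs were left out because they carried one of the 3 genes. The working label was apical papilla, from the markers Tac1, Aox3, Crabp1, Smoc2 and Itga4, and the cells are called Tac1/Aox3 cells below because the markers outside the rule bore out that label only in part.

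The study sorted fluorescent cells from the enzymatically dissociated pulp and periodontium of mouse mandibular molars and sequenced them in droplets from the 3' end of the RNA, with about 10000 cells loaded per library, per the labels. Cxcl12-GFP P6 came from mice of genotype Cxcl12-GFP/+ at postnatal day 6, in which GFP reports activity of the gene for the stromal chemokine Cxcl12. The other libraries were Cxcl12-creER P6, tdTomato-positive cells with the genotype Cxcl12-creER; R26R(tdTomato/+) at day 6, and Col1a1-GFP_Cxcl12-creER P25, sorted on GFP, tdTomato or both, which also carried the Col1a1-GFP collagen reporter and was taken at day 25. Each group was 1 library, the number of animals pooled and the time of tamoxifen were not in the labels used here, and the sorts set which cells could be seen. No value below therefore has a replicate error, no test was made, and the intervals in parentheses are 95% intervals for counting error only.

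The apical papilla is the mesenchyme at the growing root end of a tooth, below the pulp and beside the dental follicle, and it is known to supply pulp cells and the odontoblasts of the root. Tac1 encodes the precursor of the neuropeptide substance P, and Aox3 encodes an aldehyde oxidase. In Wnt signalling, secreted ligands stabilise beta-catenin, which acts with the transcription factors Lef1 and Tcf7, and targets such as Axin2 and Nkd1 feed back on the pathway.

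Cxcl12-GFP P6 held 7528 barcodes and 68891094 UMIs. Tac1/Aox3 cells had a median of 7675.5 UMIs and 2714.5 genes per cell, against 8309 UMIs and 3043 genes in other cells, so the chosen cells were not the deeper ones. The mitochondrial share was 3.30% in Tac1/Aox3 cells and 3.1% in other cells. The 254 cells held 2325559 UMIs in all, and the least and most deeply sequenced had 4150 and 29380. Xist was counted in 254 of 254 Tac1/Aox3 cells and in 6746 of 6795 other cells, and no cell of either group had Y-linked UMIs without Xist. The library shared 0 barcodes with Cxcl12-creER P6 and 1 with Col1a1-GFP_Cxcl12-creER P25, and no chosen cell was shared.

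Tac1 supplied most of the choice. It had 2476 UMIs in Tac1/Aox3 cells, with 0, 6.5 and 57 UMIs in the lowest, median and highest cell, while Aox3 had 143 UMIs and at most 4 in a cell. Both genes were counted in 101 cells, Tac1 alone in 152 and Aox3 alone in 1. Levels are given in CPM, the usual scaling of a gene's UMIs to the total UMIs of its group. Tac1 was at 1065 CPM (1023 to 1107) in Tac1/Aox3 cells and 6.69 CPM in other cells, and Aox3 at 61.5 and 2.38 CPM, which are the values the rule used. Just inside the threshold, 47 cells had 3 UMIs of the pair, and just outside it 82 cells had 2. Each gene also marked cells picked by the other alone. In the 236 cells with 3 or more Tac1 UMIs, Aox3 was at 54.2 CPM (44.8 to 65.0), against 2.79 CPM in cells with fewer. Aox3 was counted in 35.6% of these cells and in 2.26% of the rest. In the 7 cells with 3 or more Aox3 UMIs, Tac1 was at 571 CPM (421 to 757), against 44.4 CPM in cells with fewer.

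Of the 3 given markers that the rule did not use, Crabp1 separated the groups well, Itga4 did so at a low level, and Smoc2 hardly did. Crabp1, which binds retinoic acid in the cytoplasm (chromosome 9, 54764748 to 54773110, plus strand, GRCm38), had 0, 12 and 58 UMIs in the lowest, median and highest Tac1/Aox3 cell and 0, 1 and 53 in other cells. The ranges overlapped, but 96.5% of Tac1/Aox3 cells (93.4 to 98.4) and 51.3% of other cells (50.1 to 52.5) had a Crabp1 UMI. Its level was 1415 CPM in Tac1/Aox3 cells and 232 CPM in other cells, 6.10-fold higher (5.87 to 6.34). The share with a Crabp1 UMI was 24.2% among 95 cells with 2 or more UMIs of the endothelial gene Pecam1 (median depth 8220 UMIs), which serve as a gauge of free RNA. With every cell thinned to 2000 UMIs, a step that left out no cell, 85.4% of Tac1/Aox3 cells, 24.9% of other cells and 9.47% of the Pecam1 cells had a Crabp1 UMI. Crabp1 thus stood above the free RNA gauge in Tac1/Aox3 cells at equal depth.

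Itga4, an integrin subunit that binds fibronectin and VCAM1, had 45 UMIs in Tac1/Aox3 cells, or 19.4 CPM (14.1 to 25.9), against 4.29 CPM in other cells, 4.52-fold higher (3.22 to 6.21). It was counted in 15.7% of Tac1/Aox3 cells, 3.56% of other cells and 12.6% of the Pecam1 cells. The Pecam1 cells held more Itga4 than other cells did, 12.8 CPM (6.63 to 22.4). They therefore cannot gauge free RNA for this gene. Smoc2, a secreted matricellular protein, was at 748 CPM (713 to 784) in Tac1/Aox3 cells and 545 CPM (539 to 551) in other cells, a ratio of 1.37 (1.31 to 1.44). A cell held 0, 2 and 55 Smoc2 UMIs at the lowest, median and highest among Tac1/Aox3 cells, against 0, 1 and 137 among other cells. Smoc2 was therefore no marker of these cells within this library.

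Markers of neighbouring dental tissues were mostly lower. A gene is called higher or lower past a 2-fold ratio of CPM + 1 where either group reached 20 CPM, and the median log2 ratio over the 6679 genes so tested was -0.06. Of the 6 tested coronal papilla and pulp markers, 5 were lower and 1 higher, with a median log2 ratio of -1.86, while 4.36% of all genes tested were lower and 2.98% were higher. Igfbp5, which binds insulin-like growth factors, was at 325 CPM in Tac1/Aox3 cells and 1777 CPM in other cells, 5.47-fold lower (5.10 to 5.89). Cldn10, a claudin of cell junctions, was at 22.8 CPM in Tac1/Aox3 cells and 140 CPM in other cells, 6.15-fold lower (4.69 to 8.21). Rspo4, a secreted enhancer of Wnt signalling, was at 51.6 CPM in Tac1/Aox3 cells and 132 CPM in other cells, and the higher gene was Cpne5, at 70.5 and 29.7 CPM. Of 8 dental follicle markers, 5 were lower and 1 higher (median -1.60). Mfap5, a microfibril protein, was at 3.87 CPM in Tac1/Aox3 cells and 41.5 CPM in other cells, and Moxd1 at 19.8 and 94.3 CPM. The higher follicle marker was Pthlh, the parathyroid hormone-like ligand, at 227 CPM in Tac1/Aox3 cells and 106 CPM in other cells. Of 5 periodontal ligament markers, Tnmd, a tendon and ligament protein, was lower at 75.3 CPM in Tac1/Aox3 cells and 206 CPM in other cells, and Tnn, a tenascin, was higher at 28.8 and 6.71 CPM.

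Mineralising cell markers did not move as a group. Of the 6 tested osteoblast and cementoblast markers none was higher and 2 were lower: Mmp13, a collagenase, at 42.1 CPM in Tac1/Aox3 cells and 198 CPM in other cells, and Alpl, the tissue-nonspecific alkaline phosphatase, at 107 and 239 CPM. The bone transcription factor Sp7 was within 2-fold, at 154 CPM in Tac1/Aox3 cells and 125 CPM in other cells. Among odontoblast markers, Dspp, the main dentin matrix precursor, was at 0.43 CPM in Tac1/Aox3 cells and 2.43 CPM in other cells, and Dmp1 and Phex were at 0 in Tac1/Aox3 cells. Smpd3, a sphingomyelinase needed for bone and dentin mineralisation in mice, was the exception on that list. It was at 139 CPM (125 to 155) in Tac1/Aox3 cells and 6.60 CPM (5.97 to 7.27) in other cells, 21.1-fold higher (18.2 to 24.5). Smpd3 was counted in 41.7% of Tac1/Aox3 cells, 2.30% of other cells and 2.11% of the Pecam1 cells.

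Markers of most cell types other than dental mesenchyme summed to less in Tac1/Aox3 cells than in other cells, and the endothelial and neuronal markers summed to more. The 8 epithelial markers had the highest of these sums in Tac1/Aox3 cells, 325 CPM, against 514 CPM in other cells. In Tac1/Aox3 cells most of it was Ambn, an enamel matrix gene, at 279.9 CPM. In other cells Ambn was at 203 CPM and the enamel gene Amelx at 286 CPM. The 8 mural markers summed to 141 CPM in Tac1/Aox3 cells and 668 CPM in other cells, and all 4 that could be tested were lower. Rgs5, the pericyte marker, was at 3.01 CPM in Tac1/Aox3 cells and 30.7 CPM in other cells. Acta2, smooth muscle actin, was at 71.8 CPM (61.3 to 83.6) in Tac1/Aox3 cells and 454 CPM (449 to 460) in other cells, and the 10 highest Tac1/Aox3 cells held 65.9% of its UMIs in that group. The 7 Schwann markers summed to 30.1 CPM in Tac1/Aox3 cells and 99.95 CPM in other cells, the 8 immune markers to 16.3 and 37.0 CPM, and the 5 erythroid markers to 4.30 and 99.9 CPM. The 7 endothelial markers summed to 27.5 CPM in Tac1/Aox3 cells and 19.4 CPM in other cells, of which Egfl7 was 20.6 and 10.1 CPM. The 8 neuronal markers summed to 68.8 CPM in Tac1/Aox3 cells and 47.1 CPM in other cells, of which Tubb3 was 51.2 and 4.88 CPM. Ptprc, Pecam1 and Epcam were at 0 in both groups by the rule, and C1qa, C1qb, Tyrobp, Erbb3 and Cdh1 were at 0 in Tac1/Aox3 cells. Where these markers differed from other cells, their part in the results was not tested.

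Of the 12 named genes with the highest ratios, 4 belong to Wnt signalling. Wnt10a and Wnt6 encode secreted Wnt ligands and lie side by side on chromosome 1 (Wnt6 from 74771892 to 74785322 and Wnt10a from 74791516 to 74804179, plus strand, GRCm38), 6193 bases apart. Wnt10a, which tooth development requires in mice and humans, was at 111 CPM (98.2 to 126) in Tac1/Aox3 cells and 3.09 CPM (2.67 to 3.56) in other cells, 36.1-fold higher (29.8 to 43.7). A Tac1/Aox3 cell held 0, 0 and 7 Wnt10a UMIs at the lowest, median and highest, against 0, 0 and 4 in other cells, so the groups overlapped cell by cell. Wnt10a was counted in 48.0% of Tac1/Aox3 cells (41.7 to 54.4), 2.27% of other cells and 2.11% of the Pecam1 cells. At 2000 UMIs per cell these shares were 20.1%, 0.574% and 0%. Wnt6 was at 70.1 CPM (59.7 to 81.7) in Tac1/Aox3 cells and 6.19 CPM (5.59 to 6.85) in other cells, 11.3-fold higher (9.36 to 13.6). It was counted in 36.6% of Tac1/Aox3 cells and 4.44% of other cells. Of the 6 tested Wnt ligands and R-spondins, 3 were higher and 2 lower. Rspo2, which enhances Wnt signalling at the receptor, was higher at 110.1 CPM in Tac1/Aox3 cells and 26.5 CPM in other cells, and Wnt5a, a ligand of the beta-catenin-independent branch, was lower at 65.8 and 140 CPM.

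Some intracellular and feedback genes of the pathway were higher as well. Of 13 tested Wnt targets and antagonists, 5 were higher, 1 lower and 7 within 2-fold. The median log2 ratio was 0.81, and -0.11 with no floor on the level. Wif1, a secreted inhibitor that binds Wnt ligands, had 0, 33 and 133 UMIs in the lowest, median and highest Tac1/Aox3 cell and 0, 3 and 150 in other cells. Most Tac1/Aox3 cells thus lay above the typical other cell. The level of Wif1 was 4331 CPM (4247 to 4417) in Tac1/Aox3 cells and 826 CPM (819 to 833) in other cells, 5.25-fold higher (5.13 to 5.36). Lef1, the beta-catenin partner, was at 149 CPM (134 to 165) in Tac1/Aox3 cells and 32.1 CPM (30.7 to 33.6) in other cells, 4.63-fold higher (4.12 to 5.20). It was counted in 60.2% of Tac1/Aox3 cells and 18.2% of other cells. Tcf7, another partner of beta-catenin, was 2.87-fold higher (2.51 to 3.27), at 108 CPM in Tac1/Aox3 cells and 37.6 CPM in other cells. Of the feedback inhibitors, Nkd1 was at 197 CPM in Tac1/Aox3 cells and 56.6 CPM in other cells, and Axin2, at 22.8 and 8.51 CPM, was 2.68-fold higher (1.98 to 3.56). The lower gene was Dkk2, a secreted modulator of the Wnt co-receptor, at 9.89 CPM in Tac1/Aox3 cells and 37.5 CPM in other cells.

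The upstream sequences of the higher Wnt genes are shown because Wnt6, Wif1 and Lef1 were higher in the same cells. Each is 200 bases of the plus strand ending 50 bases before the start site in RefSeq (GRCm38.p6), and capitals mark CTTTG, the core of the sequence that Lef and Tcf proteins bind, searched on both strands. The windows are chr1:74771642-74771841 for Wnt6, chr10:121033754-121033953 for Wif1 and chr3:131110047-131110246 for Lef1, the first of 4 windows listed for that gene. Wnt10a is named only.
Wnt6: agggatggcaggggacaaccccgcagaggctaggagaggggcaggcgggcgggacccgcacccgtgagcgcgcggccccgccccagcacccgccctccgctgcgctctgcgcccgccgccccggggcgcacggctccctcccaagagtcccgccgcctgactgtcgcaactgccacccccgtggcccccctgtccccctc
Wif1: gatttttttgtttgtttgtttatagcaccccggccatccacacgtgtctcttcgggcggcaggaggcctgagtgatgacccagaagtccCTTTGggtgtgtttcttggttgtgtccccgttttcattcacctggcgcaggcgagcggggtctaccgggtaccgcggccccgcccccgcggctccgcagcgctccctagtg
Lef1: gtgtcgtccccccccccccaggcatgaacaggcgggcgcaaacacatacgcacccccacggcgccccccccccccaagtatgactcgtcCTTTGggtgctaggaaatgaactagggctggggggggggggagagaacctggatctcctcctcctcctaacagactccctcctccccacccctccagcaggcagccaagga
The Wif1 and Lef1 windows held 1 match each and the Wnt6 window 0, while 42.3% of the 32851 windows listed for all genes held at least 1. The longer forms CTTTGAT and CTTTGTT, which contain the core, were in 0 of these 3 windows and in 6.59% of all windows. A match is a description of the letters only.

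Other genes with high ratios came from several families. Perp, a membrane protein of desmosomes, was at 76.1 CPM in Tac1/Aox3 cells and 4.72 CPM in other cells, 16.1-fold higher (13.3 to 19.5). Tubb3, the beta-tubulin typical of neurons, was at 51.2 CPM in Tac1/Aox3 cells and 4.88 CPM in other cells, 10.5-fold higher (8.40 to 13.0). The other neuronal marker that could be tested, the sodium channel Scn9a, was lower at 8.17 CPM in Tac1/Aox3 cells and 25.0 CPM in other cells. Coch, a matrix protein best known from the inner ear, was 7.82-fold higher (6.57 to 9.26), Car2, a carbonic anhydrase, 7.73-fold (6.80 to 8.77), and Efemp1, a fibulin of the extracellular matrix, 7.4-fold (6.14 to 8.88). Coch was confined to a minority, counted in 17.3% of Tac1/Aox3 cells and 5.52% of other cells. Ptn, the heparin-binding growth factor pleiotrophin, was present throughout, with 6, 51.5 and 193 UMIs in the lowest, median and highest Tac1/Aox3 cell and 0, 8 and 192 in other cells. Its level was 6527 CPM in Tac1/Aox3 cells and 1328 CPM in other cells, 4.91-fold higher (4.83 to 5.0).

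The lowest ratios were in matrix, contractile and growth factor genes. Itgbl1, a secreted integrin-like protein, was at 11.2 CPM in Tac1/Aox3 cells and 99.6 CPM in other cells, 8.91-fold lower (6.08 to 13.7). Pgf, a growth factor of the VEGF family, was 8.43-fold lower (5.56 to 13.5) and Akap12, a protein kinase A anchor, 7.25-fold lower (5.23 to 10.4). Fmod, the collagen-binding proteoglycan fibromodulin, was at 74.4 CPM in Tac1/Aox3 cells and 419 CPM in other cells, counted in 28.7% and 65.7% of the cells. Lect1, an inhibitor of vessel growth in cartilage, was 6.13-fold lower (4.4 to 8.81). The matricellular genes Ctgf and Wisp1 were 5.89-fold (4.23 to 8.47) and 5.94-fold lower (3.91 to 9.48), the stress-responsive regulator Nupr1 6.96-fold (5.15 to 9.67) and the iron carrier Trf 5.58-fold (4.81 to 6.51). The enamel gene Amelx had the lowest ratio, at 33.5 CPM in Tac1/Aox3 cells and 286 CPM in other cells, but 10 of the other cells held 88.8% of its UMIs there. Without these 10 cells the other cells were at 32.1 CPM, beside 33.5 CPM in all Tac1/Aox3 cells. Leaving out the 10 highest of the 254 Tac1/Aox3 cells too, a far larger share of their group, gave 21.9 CPM there. An Amelx UMI was counted in 24% of Tac1/Aox3 cells and 23% of other cells.

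Cxcl12, whose reporter was used for the sort, was present at a lower level than in other cells, just short of the 2-fold call once 1 CPM is added. It was at 131 CPM (116 to 146) in Tac1/Aox3 cells and 262 CPM (258 to 266) in other cells, a ratio of 0.499 (0.444 to 0.559). The GFP transcript was at 428 CPM (402 to 456) in Tac1/Aox3 cells and 748 CPM (741 to 755) in other cells, a ratio of 0.573 (0.537 to 0.610). Both were counted in most cells of both groups, GFP in 88.6% of Tac1/Aox3 cells and 93.4% of other cells, and Cxcl12 in 59.8% of Tac1/Aox3 cells and 78.6% of other cells. Of 5 tested genes of the marrow niche list, Ebf1, a transcription factor, was lower at 27.1 CPM in Tac1/Aox3 cells and 103 CPM in other cells, Csf1 was lower at 12.5 CPM in Tac1/Aox3 cells and 34.2 CPM in other cells, and none was higher.

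**Figure D1:**
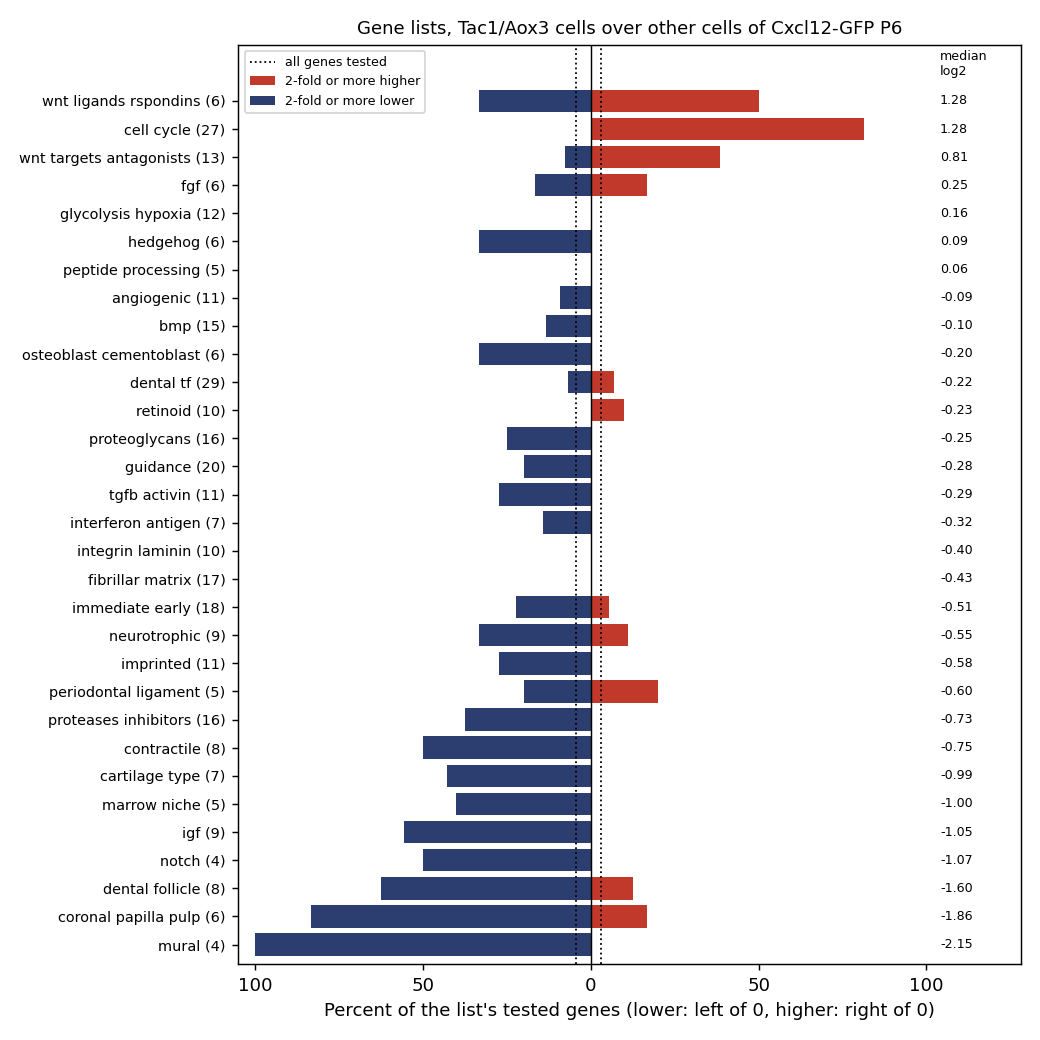
Percent of a gene list's tested genes that were 2-fold or more higher (right of 0) or lower (left of 0) in Tac1/Aox3 cells. The 254 Tac1/Aox3 cells are set against the 6795 other cells. The number tested is in parentheses and the median log2 ratio at the right. Lists with under 4 tested genes are not drawn. The dotted lines mark the percentages over all 6679 genes tested, 2.98% higher and 4.36% lower, and the cell cycle list reaches farthest to the right with 22 of 27 genes.

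Cell cycle genes were higher in Tac1/Aox3 cells. Of 27 genes tested, 22 were higher and none lower, with a median log2 ratio of 1.28. Cenpf, a kinetochore protein of dividing cells, was at 79.1 CPM in Tac1/Aox3 cells and 20.4 CPM in other cells, 3.88-fold higher (3.30 to 4.53). Mcm3 and Mcm5, parts of the replicative helicase, were 3.26-fold (2.81 to 3.76) and 3.15-fold higher (2.68 to 3.68). Ccnd1, the cyclin of G1, was at 189 CPM in Tac1/Aox3 cells and 59.6 CPM in other cells, 3.17-fold higher (2.86 to 3.50). Mki67 or Top2a, both made in dividing cells, was counted in 26.8% of Tac1/Aox3 cells (21.4 to 32.7) and 14.3% of other cells (13.5 to 15.1). At 2000 UMIs per cell the shares were 13.8% of Tac1/Aox3 cells and 6.33% of other cells, so the shares differed at equal depth too. The share among the Pecam1 cells was 13.7%, and 5.26% after thinning.

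The Wnt genes were higher in Tac1/Aox3 cells whether or not Mki67 or Top2a was counted. Of the Tac1/Aox3 cells, 68 had a Mki67 or Top2a UMI (median depth 10937.5 UMIs) and 186 had none (7137.5 UMIs). Without either gene, Wnt10a was at 102 CPM (87.0 to 119.8) in Tac1/Aox3 cells and 2.56 CPM (2.14 to 3.04) in other cells. With a UMI of either gene it was at 129 CPM (105 to 156) in Tac1/Aox3 cells and 5.43 CPM (4.16 to 6.96) in other cells. Crabp1 was at 1371 CPM in Tac1/Aox3 cells and 214 CPM in other cells without these UMIs, and at 1499.7 and 311 CPM in those with them. Coch was at 125 CPM (101 to 152) in Tac1/Aox3 cells with these UMIs and 50.9 CPM (40.2 to 63.5) in Tac1/Aox3 cells without them.

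Signalling and matrix lists other than Wnt leaned to the lower side or showed no lean. All 9 tested genes of the insulin-like growth factor list had ratios below 1, and 5 were lower (median -1.05). Igf1, the ligand, was at 131 CPM in Tac1/Aox3 cells and 564 CPM in other cells, 4.30-fold lower (3.84 to 4.83), and Igfbp3 was at 239.5 and 845 CPM. Of 6 hedgehog genes, 2 were lower. Hhip, a receptor decoy for the ligand, was at 18.9 CPM in Tac1/Aox3 cells and 87.0 CPM in other cells, and Gas1, a co-receptor, at 71.4 and 331 CPM, while the target genes Gli1 (33.5 and 18.4 CPM) and Ptch1 (94.2 and 85 CPM) were within 2-fold. Of 4 Notch genes, 2 were lower. The receptor Notch2 was at 75.7 CPM in Tac1/Aox3 cells and 227 CPM in other cells, and the target Hey1 at 54.2 and 140 CPM. Of 15 genes of the BMP list, 2 were lower and none was higher. Bmp3 was at 61.1 CPM in Tac1/Aox3 cells and 248 CPM in other cells. Of 6 FGF genes, Spry2, a feedback inhibitor, was higher at 96.3 CPM in Tac1/Aox3 cells and 32.7 CPM in other cells. The receptor Fgfr3 was lower, at 43.4 CPM in Tac1/Aox3 cells and 119 CPM in other cells.

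Dental transcription factors were mostly alike. Of 29 tested, 2 were higher and 2 lower, with a median log2 ratio of -0.22. Tbx3 was higher at 109 CPM in Tac1/Aox3 cells and 40.6 CPM in other cells, and Dlx1 at 96.8 and 44.8 CPM. The lower genes were Msx1, a homeobox factor of the tooth bud, at 172 CPM in Tac1/Aox3 cells and 366 CPM in other cells, and Sox4, at 180.2 and 364 CPM. Nfic, which root formation requires in mice, was within 2-fold at 186 CPM in Tac1/Aox3 cells and 111 CPM in other cells, as was the bone factor Runx2 at 93.7 and 73.6 CPM. Fibrillar matrix genes were likewise within 2-fold in all 17 cases tested, with Col1a1 at 4767 CPM in Tac1/Aox3 cells and 5723 CPM in other cells and Col3a1 at 4718 and 4548 CPM. In contrast, 4 of 16 proteoglycans, 6 of 16 proteases and their inhibitors and 4 of 8 contractile genes were lower and none was higher. Ogn, a small leucine-rich proteoglycan, was at 216 CPM in Tac1/Aox3 cells and 716 CPM in other cells. Tagln, an actin-binding protein of smooth muscle, was at 47.7 CPM in Tac1/Aox3 cells and 245 CPM in other cells.

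Tac1 was not accompanied by the tested genes that process peptide precursors. Of 5 tested genes that cut or amidate peptide precursors none was higher or lower. Cpe, a carboxypeptidase, was at 459 CPM in Tac1/Aox3 cells and 305 CPM in other cells and Pam, the amidating enzyme, at 405 and 348 CPM. The prohormone convertases Pcsk1 and Pcsk2 had no UMI in Tac1/Aox3 cells, which allows a level of up to 1.29 CPM (3 counts over the group). The substance P receptor Tacr1 was also at 0 in Tac1/Aox3 cells and at 2.02 CPM in other cells. Among other neuropeptide genes, Penk, the enkephalin precursor, was lower at 34.4 CPM in Tac1/Aox3 cells and 103 CPM in other cells, and Pmch at 3.87 and 33.2 CPM. Of 10 tested genes of retinoid handling, Crabp1 alone was past 2-fold, and its relative Crabp2 was at 168 CPM in Tac1/Aox3 cells and 97.7 CPM in other cells.

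The level of most of these genes moved in steps with the number of Tac1 and Aox3 UMIs in a cell, a split chosen after the values were seen. In cells with 0, 1, 2, 3 to 4, 5 to 9 and 10 or more UMIs, Wnt10a was at 2.30, 9.98, 27.9, 83.3, 95.5 and 145 CPM. Crabp1 was at 203, 552, 790.2, 1408, 1379 and 1449.5 CPM over the same bins, level from 3 UMIs on. Igfbp5 was at 1811, 1377, 1221, 339, 364 and 282 CPM, with its main step between 2 and 3 UMIs. Summed over cells with 1 or 2 UMIs, the levels of these genes thus lay between those of the bins on either side. Whether single cells were intermediate or the bins mixed unlike cells was not tested. Smoc2 had its highest level next to the threshold, at 520.2, 816, 1055, 1026, 776 and 523 CPM. Median depth was 8309.5, 8404, 7918.5, 8012.5, 7577 and 7601 UMIs over the bins.

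**Figure D2:**
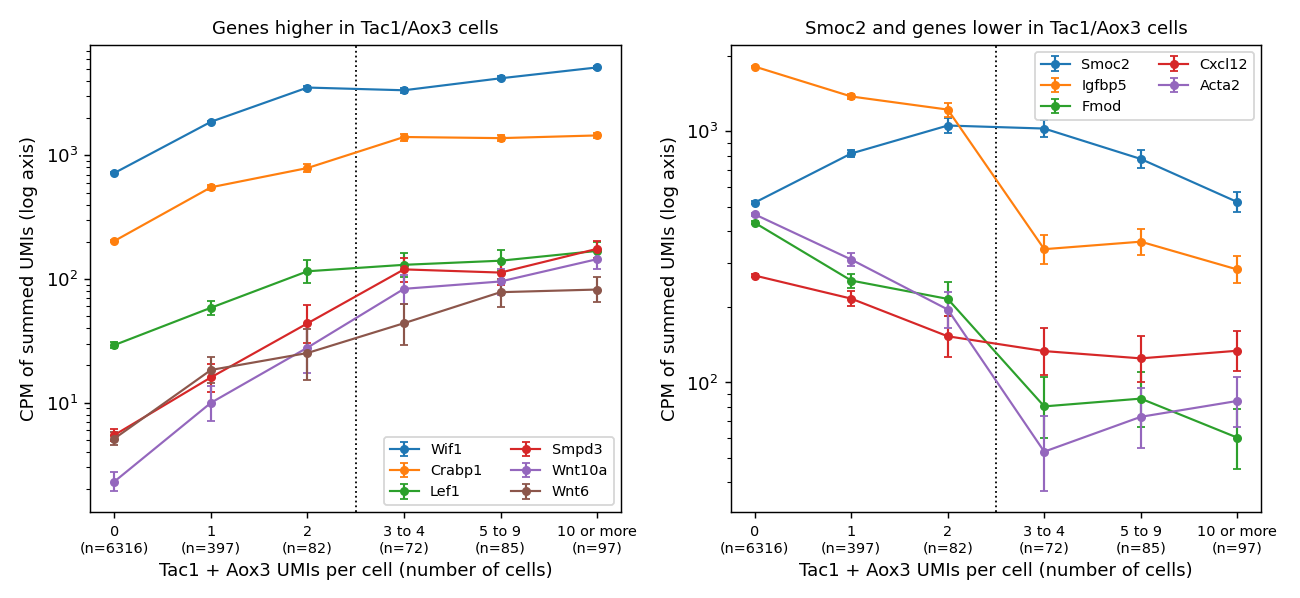
CPM of summed UMIs (log axis) in cells of Cxcl12-GFP P6 binned by their Tac1 and Aox3 UMIs, with the number of cells under each bin and bars for the 95% counting interval. The dotted line marks the threshold of 3 UMIs, and Wnt10a, at 2.30 CPM in cells with 0 UMIs and 145 CPM in cells with 10 or more, stands beside Smoc2, which is highest in the middle bins.

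Tac1/Aox3 cells lay near each other in the rest of the transcriptome. In 30 principal components of 2000 variable genes without Tac1, Aox3 and Cxcl12, a Tac1/Aox3 cell had a median of 7 Tac1/Aox3 cells among its 15 nearest neighbours (quartiles 4 and 11.75). These made up 49.9% of its neighbours on average, against 1.71% for other cells, while Tac1/Aox3 cells were 3.60% of all cells. The median was 10 for cells with 10 or more UMIs of the pair and 6 for cells with 3 to 4, and 9 Tac1/Aox3 cells had none. Conversely, 122 other cells had 5 or more Tac1/Aox3 neighbours. This cut was chosen after the values were seen. In these 122 cells Crabp1 was at 1548 CPM, against 212 CPM in the 6673 remaining other cells, and Wnt6 at 77.3 CPM, against 5.14 CPM. Wnt10a was at 59.6 CPM in the 122 cells and 2.25 CPM in the remaining other cells, and Tac1 at 75 and 5.68 CPM. These levels describe the choice, since the 122 cells were picked for their likeness to Tac1/Aox3 cells in the other variable genes and the rule holds their Tac1 and Aox3 UMIs under 3.

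**Figure D3:**
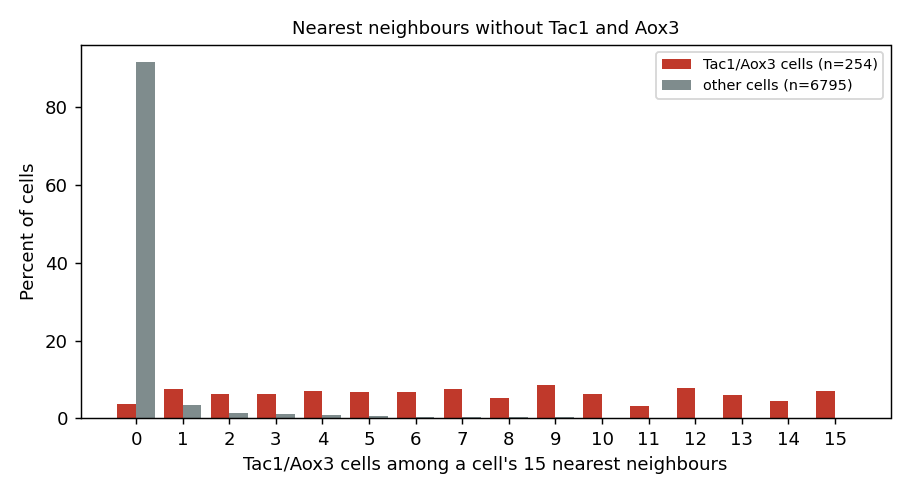
Percent of cells by the number of Tac1/Aox3 cells among their 15 nearest neighbours, for the 254 Tac1/Aox3 cells and the 6795 other cells. The other cells pile up at 0, where 6222 of them lie, and the Tac1/Aox3 cells spread over the whole range with a median of 7.

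The Tac1/Aox3 cells were not uniform in Smoc2. Smoc2 reached 3 or more UMIs in 125 of them (49.2%), and 60 had none. The split at 3 Smoc2 UMIs was made after the values were seen, and the cells on its upper and lower side had median depths of 7772 and 7587 UMIs. Between cells with 3 or more Smoc2 UMIs and those with fewer, 74 of 6639 genes (1.11%) were higher and 77 (1.16%) lower. Higher in cells with 3 or more were Mmp13, at 67.2 CPM against 16.5 CPM in cells with fewer, Col8a1, a short-chain collagen, at 123 and 32.2 CPM, and Bmp3, at 90.2 and 31.3 CPM. Lower were the bone matrix genes Ibsp, at 1.70 CPM in cells with 3 or more against 50.4 CPM in cells with fewer, and Spp1, at 5.95 and 50.4 CPM. Coch was at 17.9 CPM in cells with 3 or more and 136 CPM in cells with fewer, and Tubb3 at 19.6 and 83.5 CPM. Smpd3 lay on the same side, at 57.8 CPM in cells with 3 or more and 223 CPM in cells with fewer, as did Car2 at 68.0 and 206 CPM. Other leading genes did not follow the split. Crabp1 was at 1442 CPM in cells with 3 or more and 1386 CPM in cells with fewer, Wnt10a at 99.5 and 124 CPM and Wnt6 at 62.1 and 78.3 CPM. Crabp1 and the Wnt ligands thus differed by less than 2-fold across the split. Coch, Smpd3, Car2, Perp and Tubb3 were lower past 2-fold in the cells with more Smoc2.

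**Figure D4:**
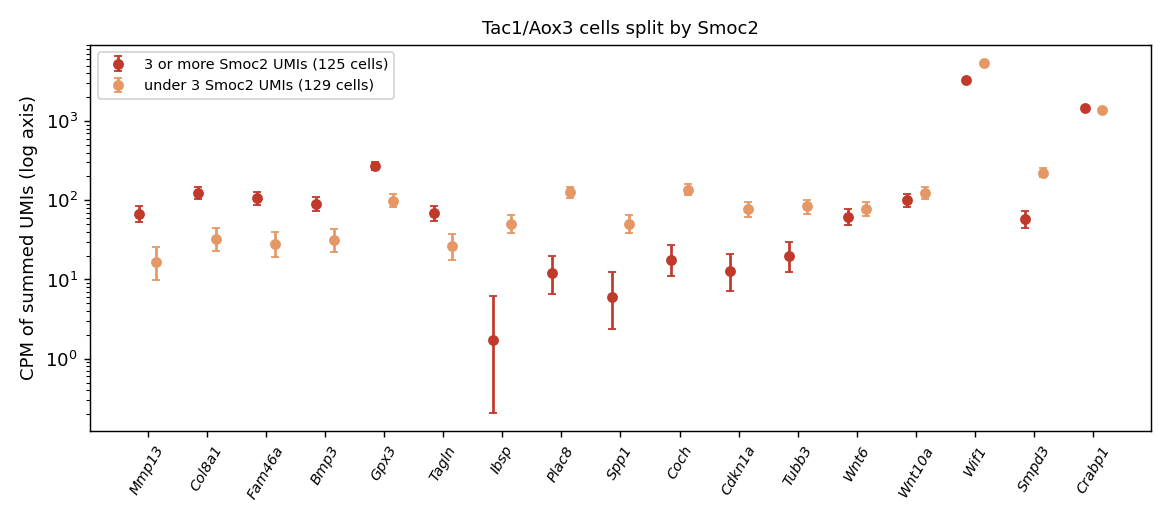
CPM of summed UMIs (log axis, bars for the 95% counting interval) in Tac1/Aox3 cells with 3 or more Smoc2 UMIs (125 cells, left of each pair) and with fewer (129 cells). Ibsp, Plac8, Spp1, Coch, Cdkn1a and Tubb3 lie lower in cells with 3 or more, and Wnt6, Wnt10a and Crabp1 lie close together.

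Cells with an Aox3 UMI had higher levels of some dividing-cell genes than Tac1/Aox3 cells without one. Median depth was 7836 UMIs in the 101 cells with both genes and 7436 in the 152 cells without Aox3. The part of depth in this split was not tested. Of 6630 genes tested, 99 (1.49%) were higher and 40 (0.603%) lower in the 102 cells with Aox3. Of the 27 cell cycle genes 11 were higher and none lower, with Cenpf at 146 CPM in cells with Aox3 and 29.2 CPM in cells without it, and Cdc20, an activator of mitotic exit, at 163 and 40.5 CPM. Ibsp was at 55.5 CPM in cells with Aox3 and 3.75 CPM in cells without it. Crabp1 was at 1395 CPM in cells with Aox3 and 1429.7 CPM in cells without it, and Smoc2 at 689 and 792 CPM.

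Smoc2 cells and Rspo4 cells of the same library were compared with them because they carry another papilla marker. Smoc2 cells, with 3 or more Smoc2 UMIs outside the set, numbered 2105 (median depth 8770 UMIs), and Rspo4 cells, chosen likewise by the coronal marker Rspo4, numbered 1208 (8712 UMIs). Against Smoc2 cells, 179 of 6597 genes (2.71%) were higher in Tac1/Aox3 cells and 273 (4.14%) lower. Wnt10a was at 4.04 CPM in Smoc2 cells, 27.6-fold higher in Tac1/Aox3 cells (21.5 to 35.6), and Coch at 3.43 CPM, 22.2-fold higher in Tac1/Aox3 cells (16.8 to 29.6). Of the 6 genes named for low ratios here, Itgbl1 was lowest (11.2 CPM in Tac1/Aox3 cells and 168 CPM in Smoc2 cells). Mfap5 (3.87 and 63.9 CPM) and Cyp1b1, a cytochrome P450 (3.01 and 51.8 CPM), came next. Of 8 follicle markers 6 were lower than in Smoc2 cells and none was higher, while the coronal markers had 1 of 5 in each direction. Cell cycle genes were higher in 17 of 27 cases and lower in none.

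Against Rspo4 cells, 344 of 6842 genes (5.03%) were higher in Tac1/Aox3 cells and 451 (6.59%) lower. Wnt10a was at 1.51 CPM in Rspo4 cells, 73.8-fold higher in Tac1/Aox3 cells (45.8 to 127), and Lef1 at 6.62 CPM, 22.5-fold higher in Tac1/Aox3 cells (17.6 to 29.1). Of 12 Wnt targets and antagonists 8 were higher and none lower, and the antagonist Sostdc1 was at 543 CPM in Tac1/Aox3 cells and 88.2 CPM in Rspo4 cells. Chodl, a membrane lectin, was at 77.0 CPM in Tac1/Aox3 cells and 3.60 CPM in Rspo4 cells. The lowest ratios were those of Lect1 (15.1 CPM in Tac1/Aox3 cells and 213 CPM in Rspo4 cells), Fmod (74.4 and 864 CPM) and the homeobox gene Irx5 (15.1 and 169 CPM). Of 5 coronal markers 4 were lower, and of 27 cell cycle genes 24 were higher. Smoc2 itself was at 748 CPM in Tac1/Aox3 cells and 139 CPM in Rspo4 cells.

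The same rule was then applied to the other libraries, whose cells took no part in the choice. The labels name the same kit for all 3 libraries, and the submitters' processing notes name Cell Ranger 6.0.0 and 3.1.0 without saying which was used where. Cxcl12-creER P6 lists 32286 genes and the others 28006. The first 8 bases of the barcodes in Cxcl12-creER P6 recurred at 82.3% in the P25 library and at 13.3% in Cxcl12-GFP P6. The part of these differences in comparisons across libraries was not tested. In Cxcl12-creER P6 it found 34 cells (3.01% of 1131, 2.09 to 4.18), and in Col1a1-GFP_Cxcl12-creER P25 it found 286 (5.06% of 5657, 4.50 to 5.66). The Cxcl12-creER P6 cells were far deeper than the rest of their library, with a median of 18773.5 UMIs against 1418, a gap that moves with every value of that library and whose part was not tested. At P25 the medians were 17348.5 and 14666 UMIs. Aox3 took the place of Tac1 at P25, where 207 of the 286 cells had Aox3 alone, and the levels were 256 CPM for Aox3 and 123 CPM for Tac1. Both an Xist and a Y-linked UMI were counted in 0, 2 and 12 of the chosen cells of Cxcl12-GFP P6, Cxcl12-creER P6 and Col1a1-GFP_Cxcl12-creER P25.

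Many of the differences recurred. Of the 199 genes higher in Tac1/Aox3 cells of Cxcl12-GFP P6, 79 of the 169 that could be tested in Cxcl12-creER P6 were higher there (46.7%, where 7.04% of all genes were), or 16.0% of the 495 higher genes of that library. At P25, 53 of 93 were higher (57.0%, where 3.55% were), or 24% of its 221. Of the 291 lower genes, 117 of 201 were lower in Cxcl12-creER P6 (58.2%, where 6.22% were), or 26.8% of its 437. At P25, 92 of 214 were lower (43.0%, where 4.78% were), or 30.9% of its 298. The epithelial markers made up 0.0694% of UMIs in Tac1/Aox3 cells and 13.0% in other cells of Cxcl12-creER P6, most of it the enamel gene Amelx, at 443 CPM in Tac1/Aox3 cells and 112732 CPM in other cells. Without the 116 other cells that had 1% or more of their UMIs from these markers, a step added after the values were seen, 69 of 170 genes were higher there (40.6%, where 4.19% of all were) and 146 of 217 lower (67.3%, where 7.86% were). With all cells of Cxcl12-creER P6, 2 of the 169 tested were lower and 2 of the 201 were higher. Of the 12 named genes with the highest ratios, 10 were past 2-fold in the same direction in each of the other libraries. The exceptions were Perp and Efemp1 in Cxcl12-creER P6 and Car2 and Efemp1 at P25.

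Values of single genes in the other libraries follow. Wnt10a was at 122 CPM in Tac1/Aox3 cells and 21.6 CPM in other cells of Cxcl12-creER P6 (8.42 CPM in other cells without those rich in epithelial markers), and at 228 and 26.0 CPM at P25. Crabp1 was at 709 CPM in Tac1/Aox3 cells and 126 CPM in other cells of Cxcl12-creER P6, and at 563 and 202 CPM at P25. Coch was high in both, at 797 CPM in Tac1/Aox3 cells and 24 CPM in other cells of Cxcl12-creER P6 and at 828 and 59.6 CPM at P25. Lef1 was at 237 CPM in Tac1/Aox3 cells and 36.4 CPM in other cells of Cxcl12-creER P6 and at 49.99 and 9.68 CPM at P25. Smoc2, slightly higher in Tac1/Aox3 cells of Cxcl12-GFP P6, was lower in both other libraries, at 63.3 CPM in Tac1/Aox3 cells and 203 CPM in other cells of Cxcl12-creER P6 and at 23.4 and 90.5 CPM at P25. Of the cell cycle genes followed, Top2a was within 2-fold in both, at 228 CPM in Tac1/Aox3 cells and 114 CPM in other cells of Cxcl12-creER P6 and at 65.7 and 40.9 CPM at P25. Ccnd1 was higher in both, at 253 CPM in Tac1/Aox3 cells and 59.8 CPM in other cells of Cxcl12-creER P6 and at 281 and 46.2 CPM at P25. Pgf, Nupr1, Ctgf, Wisp1, Lect1 and Amelx, lower in Cxcl12-GFP P6, were within 2-fold at P25 with 1 CPM added. Lect1 had 2 UMIs in Tac1/Aox3 cells at P25. Amelx had 0 UMIs in Tac1/Aox3 cells and 2 in other cells there. Pgf and Ctgf were within 2-fold in Cxcl12-creER P6 too.

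**Figure D5:**
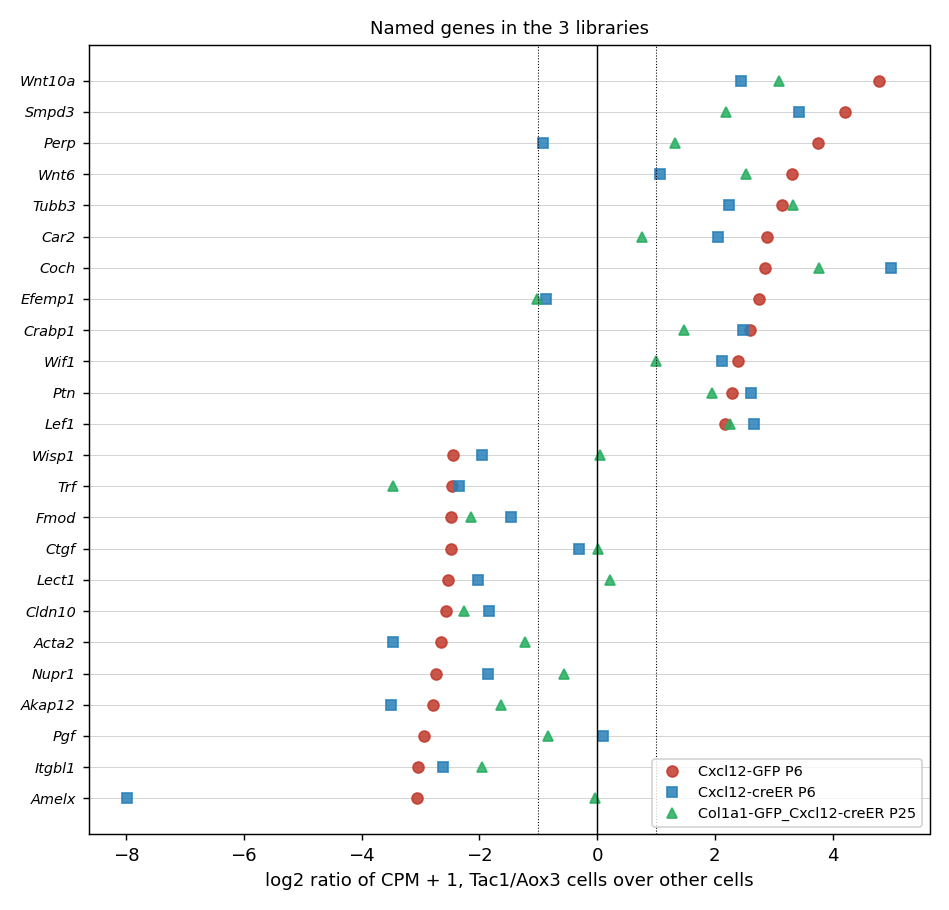
Log2 ratio of CPM + 1, Tac1/Aox3 cells over other cells, for the 24 genes with the highest and lowest ratios in Cxcl12-GFP P6 (circles), in Cxcl12-creER P6 (squares) and in Col1a1-GFP_Cxcl12-creER P25 (triangles). Dotted lines mark 2-fold, and of the 12 lower genes 10 are past it in Cxcl12-creER P6 and 6 at P25. These counts use no floor on CPM. In Cxcl12-creER P6 they include Lect1 and Cldn10, which lie under the floor set for a call, with 1 and 2 UMIs in Tac1/Aox3 cells.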

How the data were processed

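Raw UMI counts, one file set per library, are what the authors deposited, and the submitters' processing notes name Cell Ranger, Seurat and mm10. How reads were aligned and barcodes filtered is not given in the sources used here. Of 28006 identifiers of Cxcl12-GFP P6, 27645 matched the reference gene names. Counts were summed per group and scaled to CPM, and log2 ratios were taken with 1 CPM added (Python 3.11.15, numpy 2.4.6, scipy 1.17.1, scikit-learn 1.9.0). CPM carry exact Poisson, shares exact binomial and ratios exact conditional binomial 95% intervals, for counting error only. The ratio step was tested on simulated data. Doublets were not removed, and 16 other settings were tried. The members and the 41 gene lists were chosen with earlier results of these data known. Named were the given markers, Cxcl12, GFP, the 12 highest and 12 lowest ratios where the higher group reached 50 CPM and 50 UMIs (6 each way in other comparisons), and up to 4 genes past 2-fold per list. Globin, sex-linked, mitochondrial and ribosomal genes and those named Gm or Rik were passed over. Other genes named, such as Cpne5, Pthlh, Tcf7, Axin2 and Wnt5a, were picked after their values were seen.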

Additional observations from a re-analysis of the deposited data

Results flagged for a closer look

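Efemp1, a fibulin of the extracellular matrix, was 7.4-fold higher in Tac1/Aox3 cells of Cxcl12-GFP P6 (6.14 to 8.88), and its log2 ratio had the opposite sign at day 25. In Col1a1-GFP_Cxcl12-creER P25 the log2 ratio was -1.02, with 2.38 CPM in Tac1/Aox3 cells and 5.85 CPM in other cells, which is 13 UMIs in Tac1/Aox3 cells. In Cxcl12-creER P6 Efemp1 was at 4.75 CPM in Tac1/Aox3 cells, or 3 UMIs, and 9.43 CPM in other cells. Of the 12 genes with the highest ratios and the 12 with the lowest, it was the single one whose ratio was past 2-fold in the opposite direction in another library. Both levels of Efemp1 at day 25 were under the CPM floor set for a call. By that rule it could be called neither higher nor lower there. With 1 library per group the difference was not tested.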

How the results depend on the processing

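Over 16 alternative settings, the 23 genes with the highest and lowest ratios other than Crabp1, which is given below, kept their direction in 366 of 368 cases and stayed past 2-fold in 365. Acta2 turned to 2.35 without marker-bearing cells, which are other cells with more than 1 UMI of the mural, Schwann, erythroid and immune markers together. This leaves 2054 other cells and removes those with more than 1 UMI of Acta2, itself on the mural list. Amelx turned to 0.31 with both groups limited to the interquartile range of depth. No paired analysis was possible because each group is 1 library. The setting with Y-linked UMIs and no Xist gave no value, since no cell met it, and the counts not listed below moved by no more than 1.5 times. The cause of the changes below was not tested unless the setting itself shows it. Depth limits genes such as Itga4, with 45 UMIs.

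The share of chosen cells was 4.47% with at least 2 UMIs, 2.42% with at least 5, 0.0931% by Aox3 alone (7 cells), 2.75% within the depth range and 2.91% without cycling cells. Genes higher against other cells numbered 1101 by Aox3 alone, 99 with a floor of 50 CPM, 425 with no floor and 118 without cycling cells, and genes lower 1200, 144 and 939 under the first 3 of these, 162 without marker-bearing cells and 438 within the depth range. The log2 ratio of Crabp1 was 2.48 (2 UMIs), 2.53 (5 UMIs), 2.20 (Aox3 alone), 2.79 (other cells at 0), 1.62 (without marker-bearing cells), 2.71 (doublets removed), 2.68 (depth), 2.67 (centred on the median gene) and 2.67 (without cycling cells). That of Itga4 was 2.66 by Aox3 alone, 1.5 without marker-bearing cells and 1.39 with 5 CPM added. That of Smoc2 was 0.61 (2 UMIs), 0.21 (5 UMIs), -3.20 (Aox3 alone), -0.44 (without marker-bearing cells), 0.60 (doublets removed), 0.75 (depth) and 0.53 (without cycling cells), so its sign depends on which cells are compared.

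List medians moved as follows. The coronal list was at -1.11 by Aox3 alone, -1.30 without marker-bearing cells, -2.56 with doublets removed, -3.05 within the depth range and -2.54 as a mean over cells. The mural list was at -1.80 (2 UMIs), -3.55 (Aox3 alone), -2.86 (doublets) and -1.30 (no floor). Wnt targets and antagonists were at 0.65 (Aox3 alone), 0.64 (without marker-bearing cells), 1.01 (depth) and -0.11 (no floor). Wnt ligands and R-spondins were at 0.66 (2 UMIs), 0.62 (Tac1 alone), 0.99 (Aox3 alone), 0.68 (doublets), 0.83 (mean over cells), 2.01 (floor of 50 CPM) and, reversed, -0.31 (no floor, which lets in genes with few UMIs). The insulin-like growth factor list was at -2.37 (Aox3 alone), -0.53 (without marker-bearing cells) and -1.43 (floor of 50 CPM). The cell cycle list was at 1.07 (2 UMIs), 1.06 (Aox3 alone) and 0.94 (without cycling cells). The neuropeptide list reversed to 0.37 by Aox3 alone.

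Against Smoc2 cells, genes higher and lower numbered 1163 and 1132 by Aox3 alone, 88 and 152 with a floor of 50 CPM and 412 and 816 with none, and 100 were higher without cycling cells. Against Rspo4 cells they numbered 1168 and 1388, 178 and 257, and 769 and 1175 under the same first 3 settings. Between cells with and without Aox3, lower genes numbered 23 (2 UMIs), 81 (5 UMIs), 69 (doublets) and 106 (without cycling cells), and higher and lower genes 275 and 208 within the depth range, 60 and 11 with 5 CPM added, 29 and 0 with a floor of 50 CPM and 608 and 545 with none. In the split by Smoc2, higher genes numbered 41 (2 UMIs) and 119 (5 UMIs), lower genes 140 (doublets), and higher and lower genes 206 and 320 (depth), 37 and 41 (5 CPM added), 18 and 23 (floor of 50 CPM), 581 and 524 (no floor) and 121 and 131 (without cycling cells). With cells chosen by Aox3 alone, the median number of chosen cells among the 15 neighbours of a chosen cell was 0. Only those 7 cells could be counted as neighbours there, so this value says nothing on how near they lay to Tac1/Aox3 cells.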
